A study of Mus musculus with 23 samples.

Results

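The 9 chemoattractant receptor genes Ccr1, Ccr2, Ccrl2, Cx3cr1, Cxcr4, C5ar1, C3ar1, Fpr1 and Fpr2 were followed in bone marrow-derived macrophages (BMDM) of mice with and without the kinases MK2 and MK3. They were chosen by name as receptors of macrophages for chemokines, complement peptides and formyl peptides. Earlier results of these data were known at that choice, so counts set beside all genes describe these receptors only. Each array probe whose accession mapped to one of them was taken, which gave 11 of the 32885 probes with an accession and 9 of the 26014 genes tested. Cx3cr1 had 3 probes and each other gene had 1. The samples were 23, in 6 groups: wt, MK2-/- and MK2/3-/- BMDM, the last lacking both kinases, each given culture medium alone or LPS at 100 ng/ml over 120 min, with 4 arrays per group and 3 for untreated MK2-/- BMDM. All mice were male and of strain C57BL/6 (the study's methods give a C57BL/6J background), aged 12 to 13 weeks (wt), 10 to 13 weeks (MK2-/-) and 11 to 14 weeks (MK2/3-/-), and femoral marrow was grown for 9 days in 10 ng/ml M-CSF in every group. Both deletions are carried in the whole animal, so the cells lacked the kinases throughout differentiation, and no group lacked MK3 alone.

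Chemoattractant receptors are heptahelical membrane receptors by which leukocytes sense gradients of ligand. Most couple to inhibitory G proteins that drive directed migration and are silenced by receptor kinases, arrestins and regulators of G protein signalling. Monocytes enter tissue mainly through CCR2, while formyl peptide and complement receptors detect bacterial products and complement fragments near the target. LPS acts through TLR4, and MK2 and MK3 are kinases downstream of p38 MAPK that act on mRNA stability and translation.

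Levels are given as log2 of the quantile normalized spot signal, in which 1 unit is a doubling of the signal, and differences are LPS minus medium or the first genotype minus the other. Signals of different probes were not compared. The arrays of 1 group correlated with each other at 0.963 to 0.989, and 47.5 to 69.1% of the probes of an array lay well above background, with both extremes in MK2/3-/- BMDM in medium. All 9 measured macrophage markers were well above background on every array. Mapkapk2, which encodes MK2, had mean levels of 12.2 in wt, 8.91 in MK2-/- and 8.72 in MK2/3-/- cells in medium, and Mapkapk3, which encodes MK3, had 13.5, 13.7 and 11.9, so both followed the labels. A residual signal of each targeted gene remained in the deficient cells. The methods of the study name completely independent experiments, and letters in the authors' array names (a, b, c and e) pair a medium and an LPS array of 1 culture within each genotype. All arrays of a genotype were on 1 slide, so genotype and slide cannot be told apart. Untreated and LPS arrays of a genotype shared its slide.

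LPS moved the receptors in opposite directions. Transcripts of the atypical chemerin receptor Ccrl2, the formyl peptide receptors Fpr1 and Fpr2 and the C5a receptor C5ar1 rose in all 3 genotypes, and that of the CXCL12 receptor Cxcr4 fell in all 3. Ccr2, Cx3cr1 and C3ar1 had lower means after LPS without passing the adjusted threshold, and Ccr1 lay near background. Thus 5 of 9 receptors were called in each genotype, 4 higher and 1 lower, where LPS called 17.1% of all tested genes in wt cells (8.26% up, 8.89% down), 18.6% in MK2-/- cells (8.48% up, 10.1% down) and 24.9% in MK2/3-/- cells (11.9% up, 12.9% down). Over the 9 receptors the LPS difference had a median size of 1.59 (wt), 1.58 (MK2-/-) and 1.89 log2 units (MK2/3-/-), and over all genes 0.34, 0.39 and 0.42. The values of medium and LPS arrays did not overlap for 6, 7 and 6 of the receptors, nor for 22.9%, 32.8% and 26.4% of all genes. These shares and medians are not matched for signal, since all tested genes include those near background. In at least 1 group, 8 receptors were well above background on every array, as were 15686 other genes without missing values. With only such probes kept, LPS called 5 of 8 receptors in each genotype, and 4943, 5167 and 6813 genes in all. As RNA of whole cultures was measured, fewer cells that express a receptor and less RNA per cell cannot be told apart.

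**Figure D1:**
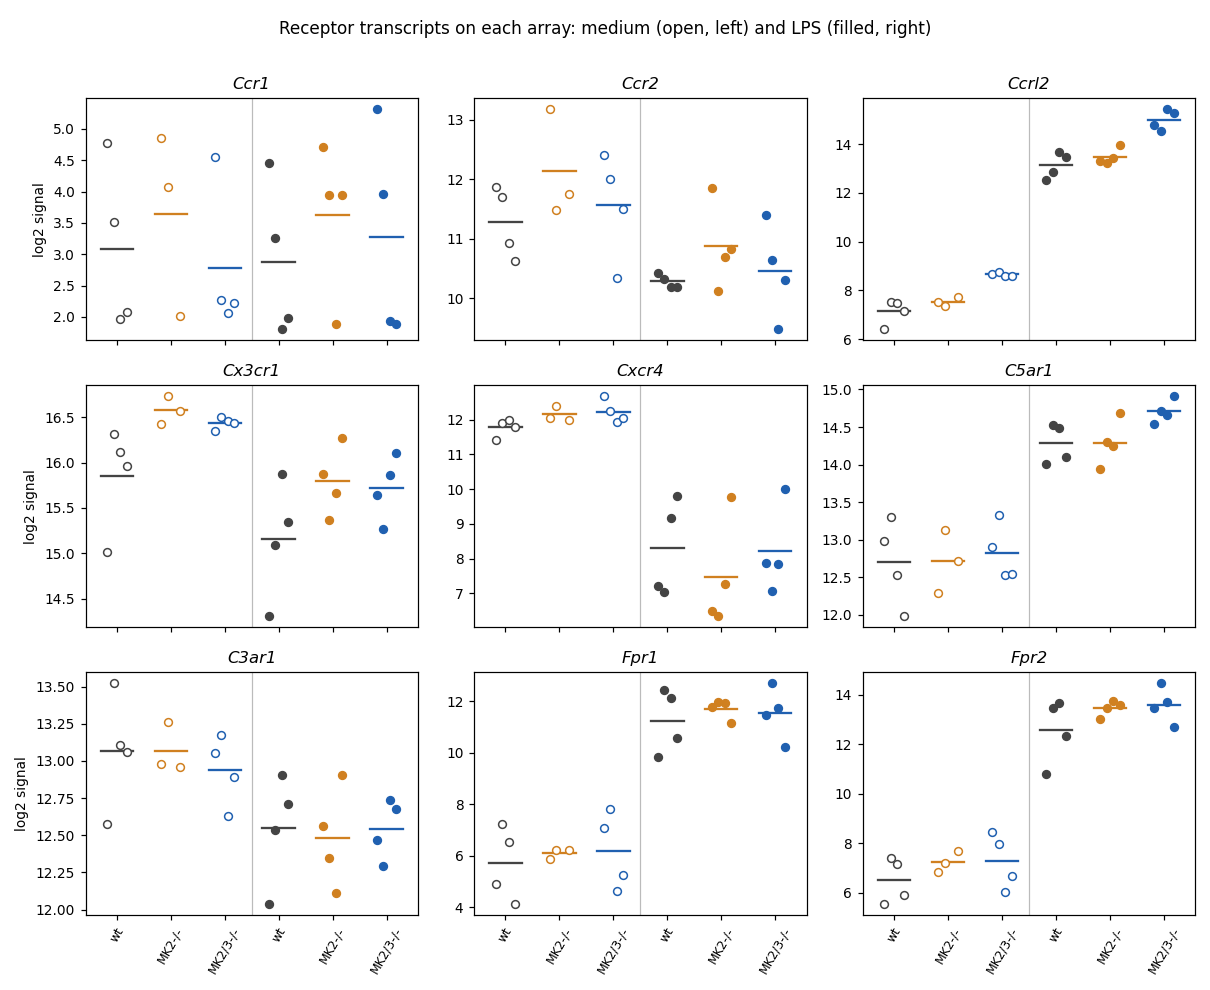
Log2 signal (vertical axis, its own range for each receptor) of the 9 receptors on each of the 23 arrays, 1 point per array and a line at the group mean, with BMDM in medium as open points at the left of each panel and LPS-treated BMDM as filled points at the right. Ccrl2, Fpr1, Fpr2 and C5ar1 separate by treatment upwards and Cxcr4 downwards in every genotype, and Ccrl2 of MK2/3-/- BMDM sits above the other genotypes under both conditions.

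The genes with the largest changes, Ccrl2, Fpr1, Fpr2 and Cxcr4, are shown with the 250 bases before the outermost annotated start, from RefSeq on build GRCm38.p6, so that the promoters of receptors that rose and of the one that fell can be read side by side. All 9 receptors had a RefSeq promoter entry. The windows are Ccrl2 at chr9:111057519-111057768, minus strand, Fpr1 at chr17:17883940-17884189, minus strand, Fpr2 at chr17:17887574-17887823, plus strand, and Cxcr4 at chr1:128592300-128592549, minus strand. Each is written 5′ to 3′ in the direction of transcription, and capitals mark the match to the NF-kB motif.
Ccrl2: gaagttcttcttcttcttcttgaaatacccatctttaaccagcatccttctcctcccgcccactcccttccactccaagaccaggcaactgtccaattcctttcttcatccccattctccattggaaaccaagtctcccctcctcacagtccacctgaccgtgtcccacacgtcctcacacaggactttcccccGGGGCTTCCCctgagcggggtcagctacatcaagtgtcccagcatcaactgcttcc
Fpr1: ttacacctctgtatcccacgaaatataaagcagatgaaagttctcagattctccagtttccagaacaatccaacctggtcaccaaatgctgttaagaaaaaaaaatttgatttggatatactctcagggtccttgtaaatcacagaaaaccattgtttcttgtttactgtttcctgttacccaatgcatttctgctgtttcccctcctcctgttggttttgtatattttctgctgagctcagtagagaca
Fpr2: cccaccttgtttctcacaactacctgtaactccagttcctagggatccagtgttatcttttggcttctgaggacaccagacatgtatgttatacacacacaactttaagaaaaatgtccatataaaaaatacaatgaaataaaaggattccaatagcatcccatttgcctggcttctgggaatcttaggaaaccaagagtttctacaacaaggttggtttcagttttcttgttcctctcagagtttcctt
Cxcr4: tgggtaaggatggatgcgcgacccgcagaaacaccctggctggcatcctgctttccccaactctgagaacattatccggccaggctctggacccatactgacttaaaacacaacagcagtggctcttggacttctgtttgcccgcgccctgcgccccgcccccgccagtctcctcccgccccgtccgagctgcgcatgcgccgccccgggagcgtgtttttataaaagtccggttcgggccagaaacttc
The motifs of 3 factors were searched on both strands: NF-kB and the CArG box by their consensus, and AP-1 as TGANTCA. Ccrl2 held 1 NF-kB match, readable on both strands, whose first base lies at position -56 from the start. Of the other receptors, Ccr1 held an NF-kB match at -74 and C3ar1 an AP-1 match at -22. The promoter entries of Ccr2 and C5ar1 start inside the annotated gene, so their windows, which held no match, overlap it. Of 32817 such windows over all genes, 7.25% held an NF-kB match, 6.75% an AP-1 match and 1.47% a CArG box. A match describes these letters only, and so does its absence from Fpr1, Fpr2 and Cxcr4.

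Ccrl2 is an atypical receptor that binds chemerin and presents it to neighbouring cells without classical G protein signalling. Its gene lies on chromosome 9 at 111054834 to 111057518. In wt BMDM its level was 6.40, 7.52, 7.48 and 7.15 in medium and 12.51, 12.86, 13.69 and 13.47 after LPS. MK2-/- BMDM had 7.54, 7.35 and 7.75 in medium and 13.29, 13.22, 13.41 and 13.95 after LPS, and MK2/3-/- BMDM had 8.67, 8.76, 8.60 and 8.60 and then 14.76, 14.53, 15.42 and 15.27. Every LPS array thus lay above every medium array, and among the LPS arrays all 4 of MK2/3-/- BMDM exceeded every array of the other genotypes. The rise was 6.00 log2 units in wt (SE 0.27, 63.8-fold, adjusted p = 7.84e-12), 5.92 in MK2-/- (SE 0.30, 60.6-fold, adjusted p = 4.20e-11) and 6.34 in MK2/3-/- BMDM (SE 0.27, 80.9-fold, adjusted p = 3.81e-12).

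Fpr1 and Fpr2, neighbours on chromosome 17, encode receptors for N-formylated bacterial and mitochondrial peptides, and Fpr2 also binds other peptides and lipids. Fpr2 levels in wt BMDM were 5.57, 7.42, 7.17 and 5.90 in medium and 10.80, 13.49, 13.67 and 12.35 after LPS. In MK2-/- BMDM they were 6.83, 7.20 and 7.71 and then 13.01, 13.49, 13.77 and 13.60, and in MK2/3-/- BMDM 8.47, 7.99, 6.03 and 6.67 and then 13.46, 14.47, 13.73 and 12.70. All LPS arrays lay above all medium arrays, and the lowest LPS value was that of wt culture a. The rise was 6.06 in wt (SE 0.61, 66.7-fold, adjusted p = 5.59e-07), 6.23 in MK2-/- (SE 0.66, 74.8-fold, adjusted p = 1.00e-06) and 6.30 in MK2/3-/- BMDM (SE 0.61, 78.8-fold, adjusted p = 2.21e-07).

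Fpr1 behaved alike with a wider spread between cultures. Its wt levels were 4.92, 7.23, 6.55 and 4.15 in medium and 9.83, 12.44, 12.14 and 10.56 after LPS. MK2-/- BMDM gave 5.86, 6.21 and 6.23 and then 11.76, 11.98, 11.93 and 11.15, and MK2/3-/- BMDM gave 7.09, 7.81, 4.64 and 5.27 and then 11.47, 12.69, 11.72 and 10.21. No medium array reached the lowest LPS array, and culture b was the highest after LPS in all 3 genotypes. The increases of 5.53 (SE 0.75, 46.1-fold), 5.60 (SE 0.81, 48.6-fold) and 5.32 (SE 0.75, 40.0-fold) had adjusted p-values of 2.25e-05, 4.28e-05 and 2.25e-05 in wt, MK2-/- and MK2/3-/- BMDM. The formyl peptide receptors are a family of close paralogs, and how far a probe of one also bound transcripts of another was not tested.

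C5ar1, the G protein-coupled receptor of the anaphylatoxin C5a, rose less than Ccrl2, Fpr1 and Fpr2. In medium it was 12.98, 13.30, 12.53 and 11.98 in wt, 12.29, 13.13 and 12.72 in MK2-/- and 12.90, 13.33, 12.53 and 12.54 in MK2/3-/- cells. LPS brought it to 14.01, 14.53, 14.48 and 14.10 in wt, 13.94, 14.30, 14.25 and 14.69 in MK2-/- and 14.54, 14.72, 14.67 and 14.91 in MK2/3-/- cells. The lowest LPS array lay above the highest medium array. The increases were 1.59 (SE 0.26, 3.00-fold, adjusted p = 0.000170), 1.58 (SE 0.28, 2.99-fold, adjusted p = 0.000358) and 1.89 (SE 0.26, 3.69-fold, adjusted p = 1.66e-05). C3ar1, the receptor of the sister anaphylatoxin C3a, did not follow: its levels ranged from 12.57 to 13.52 in medium and from 12.04 to 12.91 after LPS, and its differences of -0.52, -0.59 and -0.40 missed the threshold (SE 0.22, 0.23 and 0.22, adjusted p = 0.119, 0.0922 and 0.205). C3ar1 was lower after LPS in 10 of the 11 cultures with both arrays.

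Cxcr4, the receptor of CXCL12 that holds leukocytes in the marrow, was the only one of the 9 receptors called lower. It was 11.42, 11.90, 12.00 and 11.78 in wt, 12.06, 12.40 and 12.00 in MK2-/- and 12.67, 12.24, 11.92 and 12.04 in MK2/3-/- cells in medium. LPS brought it to 7.22, 7.03, 9.18 and 9.82 in wt, 6.49, 6.33, 7.26 and 9.77 in MK2-/- and 7.88, 7.08, 7.86 and 10.02 in MK2/3-/- cells. No LPS array reached the medium arrays, and culture e was the highest after LPS in every genotype. The differences were -3.46 in wt (SE 0.71, 11.0-fold lower, adjusted p = 0.00150), -4.69 in MK2-/- (SE 0.77, 25.8-fold lower, adjusted p = 0.000161) and -4.01 in MK2/3-/- BMDM (SE 0.71, 16.1-fold lower, adjusted p = 0.000259). Within culture e the fall was -1.97, -2.23 and -2.02, and in the other 8 cultures it ran from -2.82 to -6.06.

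Ccr2, the CCL2 receptor of inflammatory monocytes, ranged from 10.34 to 13.17 in medium and from 9.48 to 11.84 after LPS. Its mean difference was -0.997 in wt (SE 0.48, adjusted p = 0.193), -1.26 in MK2-/- (SE 0.52, adjusted p = 0.107) and -1.10 in MK2/3-/- BMDM (SE 0.48, adjusted p = 0.108). Ccr2 was nevertheless lower after LPS in 11 of 11 cultures, by -0.44 to -1.44. With culture as a random block, which the pairing of the arrays allows, Ccr2 was called in MK2-/- (adjusted p = 0.0379) and MK2/3-/- BMDM (adjusted p = 0.0351) but not in wt. With the culture letter as a fixed block it was called in all 3 genotypes (adjusted p = 0.0357 in wt). The LPS response of Ccr2 was not called different between genotypes.

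Cx3cr1, the receptor of the membrane-bound chemokine CX3CL1, had levels of 15.01 to 16.73 in medium and 14.30 to 16.27 after LPS on the probe used. It too was lower in 11 of 11 cultures, with mean differences of -0.70 (SE 0.30, adjusted p = 0.130), -0.78 (SE 0.32, adjusted p = 0.105) and -0.72 (SE 0.30, adjusted p = 0.0900). Blocking by culture gave adjusted p = 0.0533 in wt, 0.0489 in MK2-/- and 0.0358 in MK2/3-/- cells. Probe choice also decided this call, since of its probes the one least lowered by LPS in wt cells was used: adjusted over all probes, the 2 others fell by 1.34 (adjusted p = 0.00835), 1.14 (adjusted p = 0.0350) and 1.53 (adjusted p = 0.00212), and by 1.02 (adjusted p = 0.0251), 1.05 (adjusted p = 0.0299) and 1.18 (adjusted p = 0.00687), in wt, MK2-/- and MK2/3-/- BMDM. No probe of a receptor was saturated on any array.

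Ccr1, a receptor of CCL3 and CCL5, was well above background on 5 of the 23 arrays, and its levels of 1.80 to 5.31 allow no statement on LPS (differences -0.21, -0.02 and 0.49, adjusted p = 0.945, 0.995 and 0.775). Culture a held its highest value in all 6 groups, as it did for Ccr2.

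**Figure D2:**
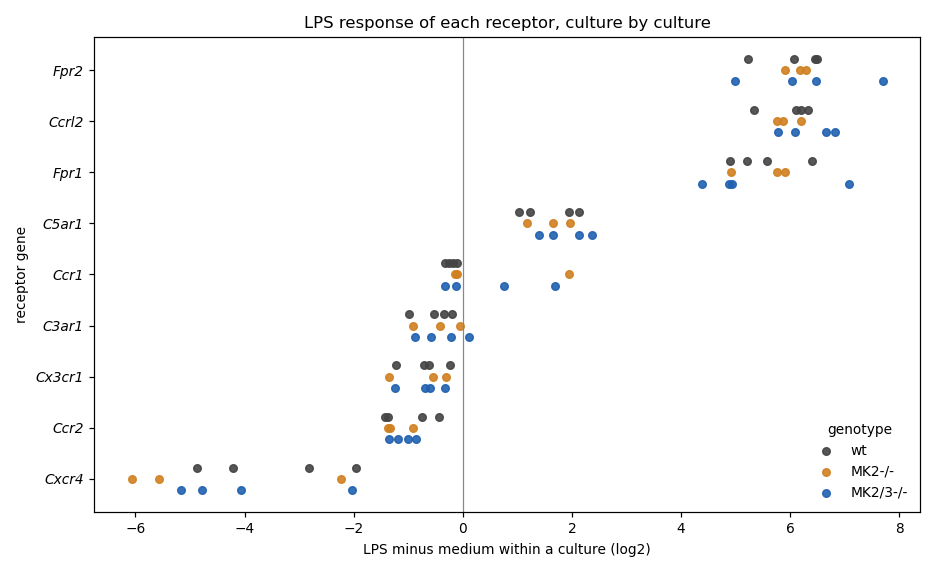
Difference LPS minus medium (log2, horizontal axis) of each receptor within each of the 11 cultures that have both arrays, 1 point per culture, coloured by genotype. Ccrl2, Fpr1, Fpr2 and C5ar1 lie above 0 and Cxcr4, Ccr2 and Cx3cr1 below 0 in all 11 cultures, and Cxcr4 spreads from -1.97 to -6.06.

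**Figure D3:**
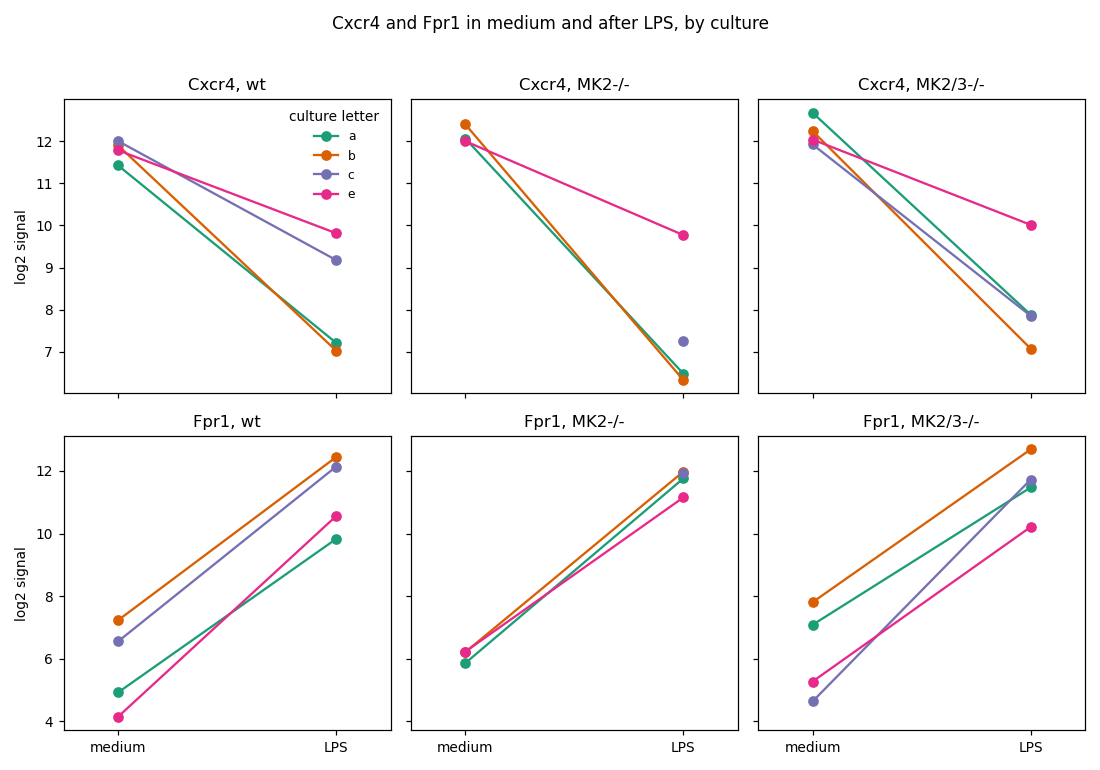
Log2 signal (vertical axis) of Cxcr4 (upper panels) and Fpr1 (lower panels) in medium and after LPS in each genotype, with a line joining the 2 arrays of a culture and colours for the culture letters a, b, c and e (culture c of MK2-/- BMDM has an LPS array only). Cxcr4 falls least in culture e of every genotype, and Fpr1 after LPS is highest in culture b of every genotype.

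Whether MK2 or MK3 alters the receptors was asked within medium and within LPS. Ccrl2 was the only receptor with a called difference: its transcript was higher in MK2/3-/- than in wt BMDM both after LPS and in medium, and higher than in MK2-/- BMDM after LPS. After LPS it exceeded wt by 1.86 log2 units (SE 0.27, 95% interval 1.29 to 2.44, 3.64-fold, adjusted p = 0.00165), and 1.64% of all genes were called in that comparison, 0.773% higher. Against MK2-/- BMDM after LPS it was higher by 1.53 (SE 0.27, 2.89-fold, adjusted p = 0.0242; 0.161% of all genes called, 0.0577% higher). In medium it exceeded wt by 1.52 (SE 0.27, 2.87-fold, adjusted p = 0.0368; 0.0769% of all genes called, 0.0269% higher). The 4 MK2/3-/- arrays did not overlap the other genotype in any of these comparisons, and the exact permutation test gave p = 0.0286, the smallest that 4 against 4 arrays allow. Against MK2-/- BMDM in medium the difference of 1.11 (SE 0.30) did not overlap either but missed the threshold (adjusted p = 0.618; 0.0461% of all genes called). The calls against MK2-/- BMDM after LPS and against wt in medium were lost when single arrays were left out, with adjusted p up to 0.102 and 0.166, and also when the fit held only the groups compared, which also ended the call against wt after LPS.

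The order of Ccrl2 was MK2/3-/-, MK2-/- and wt under both treatments, of which MK2-/- and wt did not differ beyond their spread. MK2-/- minus wt was 0.33 after LPS (SE 0.27, 95% interval -0.24 to 0.91, adjusted p = 0.807) and 0.41 in medium (SE 0.30, interval -0.21 to 1.03, adjusted p = 1.00). The LPS response itself was not called different for any receptor: for Ccrl2 it exceeded that of wt by 0.34 in MK2/3-/- BMDM (SE 0.39, interval -0.47 to 1.15), and all 9 receptors had unadjusted p above the threshold in each of the 3 interactions. Over all genes 0.00384% were called for MK2-/- against wt, 0.0115% for MK2/3-/- against wt and 0% for MK2/3-/- against MK2-/- in their LPS response.

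Loss of MK2 alone gave no called receptor. After LPS 0.0308% of all genes were called between MK2-/- and wt BMDM, and in medium 0.00769%. The largest mean differences were in Fpr2 after LPS, at 0.89 (SE 0.61, adjusted p = 0.749), in Ccr2 in medium, at 0.86 (SE 0.52, adjusted p = 1.00), and in Cxcr4 after LPS, at -0.85 (SE 0.71, adjusted p = 0.812), and the arrays overlapped in each. Cx3cr1 was 0.64 higher in MK2-/- than in wt BMDM after LPS (SE 0.30, adjusted p = 0.654) and 0.72 higher in medium (SE 0.32, adjusted p = 1.00), the only receptor with an unadjusted p under 0.05 in these comparisons. With both kinases absent, Fpr2 stood 1.02 above wt after LPS (SE 0.61, interval -0.27 to 2.30, adjusted p = 0.506) with overlapping arrays, and C5ar1 stood 0.43 above wt (SE 0.26, interval -0.12 to 0.97, adjusted p = 0.509). The arrays of C5ar1 did not overlap between MK2/3-/- and wt BMDM after LPS, nor did those of Cx3cr1 in medium between MK2/3-/- and wt BMDM (difference 0.59, SE 0.30, adjusted p = 1.00) or between MK2-/- and wt BMDM. All Cx3cr1 values here are of the probe used. On its other probes the arrays overlapped in both of these comparisons in medium. With Ccrl2 included, after LPS 0, 2 and 1 of the 9 receptors did not overlap in MK2-/- against wt, MK2/3-/- against wt and MK2/3-/- against MK2-/- BMDM, beside 3.72%, 5.8% and 5.13% of all genes, and in medium 1, 2 and 1 did not, beside 7.02%, 4.05% and 6.43%.

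**Figure D4:**
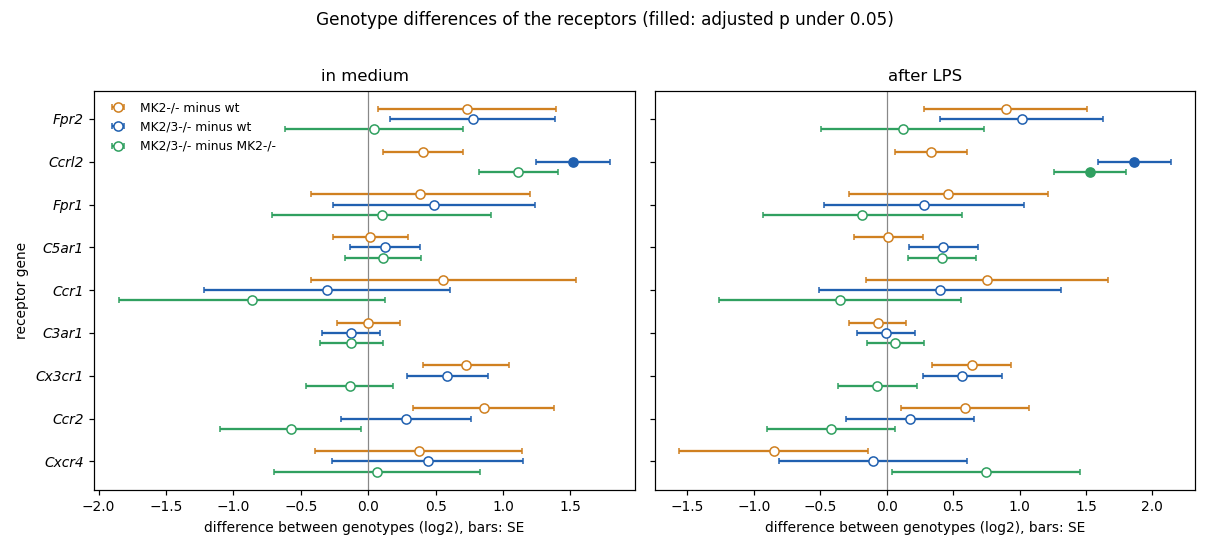
Differences between genotypes (log2) of the 9 receptors in medium and after LPS, with the SE of the limma fit as bars. Filled points mark an adjusted p under 0.05, which are those of Ccrl2 alone: MK2/3-/- minus wt in medium and after LPS, and MK2/3-/- minus MK2-/- after LPS.

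Ccrl2 lies 3.76 Mb from Mapkapk3 on chromosome 9, while Cx3cr1, Ccr1 and Ccr2 lie 12.8, 16.7 and 16.8 Mb away on the same chromosome and Cxcr4 lies 2.46 Mb from Mapkapk2 on chromosome 1. Of 190 tested genes within 5 Mb of Mapkapk3, Ccrl2 among them, 9 were called between MK2/3-/- and wt BMDM after LPS (4.74%, 4 higher and 5 lower), 4 in medium (2.11%), and 3 between MK2/3-/- and MK2-/- BMDM after LPS (1.58%). Over all genes the shares were 1.64%, 0.0769% and 0.161%. Between MK2-/- and wt BMDM none of the 190 was called after LPS or in medium, beside 0.0308% and 0.00769% of all genes. An effect of MK3 loss on Ccrl2, an effect of DNA inherited with the targeted locus and an effect of the slide cannot be told apart. The comparisons with wt BMDM also hold the loss of MK2.

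Other genes of the chemoattractant system moved with LPS too, and hardly with genotype. Of 21 genes for ligands of the receptors, 12, 11 and 12 rose in wt, MK2-/- and MK2/3-/- BMDM and none fell, with a median difference of 2.30, 1.57 and 2.21 against 0.01, -0.01 and -0.02 over all genes. Ccl2 and Ccl7, which bind CCR2, rose by 7.78 and 8.08 in wt BMDM (SE 0.61 and 0.81, adjusted p = 1.79e-08 and 4.83e-07), by 8.65 and 9.33 in MK2-/- and by 8.57 and 9.91 in MK2/3-/- BMDM. Ccl3 and Ccl4 rose by 5.88 and 5.93 in wt BMDM (adjusted p = 1.10e-10 and 3.45e-10), Ccl12 by 7.54, and Cx3cl1, the ligand of CX3CR1, by 3.43 (SE 0.56, adjusted p = 0.000165).

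Of 18 other chemokine receptors, 4, 3 and 6 rose and none fell in wt, MK2-/- and MK2/3-/- BMDM, with a median difference of 0.43, 0.35 and 0.74. Of all genes 8.26%, 8.48% and 11.9% rose and 8.89%, 10.1% and 12.9% fell (17.1%, 18.6% and 24.9% in either direction), which is the background of each of these lists. Ccr9, a receptor of gut homing, rose by 2.46 in wt, 2.46 in MK2-/- and 2.57 in MK2/3-/- cells (SE 0.27, 0.29 and 0.27), and Ccr3, a receptor of eosinophils, by 2.81, 2.47 and 2.00. Ccr7, the receptor that takes dendritic cells to lymph nodes, rose in wt BMDM by 3.21 (SE 0.93, adjusted p = 0.0208), and its differences of 1.59 and 0.99 in MK2-/- and MK2/3-/- BMDM missed the threshold (adjusted p = 0.330 and 0.509). Its wt arrays in medium spread from 3.46 to 8.88. Ccr8 was called in MK2-/- and MK2/3-/- BMDM (1.66 and 1.74, adjusted p = 0.00139 and 0.000308) and not in wt (0.79, adjusted p = 0.0974). For neither Ccr7 nor Ccr8 was the LPS response called different between genotypes. Ackr2, a scavenger of inflammatory chemokines, was not well above background in wt BMDM in medium and rose at least 1.71-fold there (adjusted p = 0.0309).

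Of 18 measured receptors for other complement, formyl peptide, chemerin and lipid attractants, 4, 5 and 5 rose and 3, 3 and 2 fell, with a median difference of 0.44, 0.74 and 0.63. Ptafr, the receptor of platelet-activating factor, rose by 3.33, 3.06 and 3.01 (SE 0.31, 0.33 and 0.31). The formyl peptide receptor paralog Fpr-rs6 rose by 3.32 in wt BMDM (SE 0.56, adjusted p = 0.000234), at least 14.5-fold in MK2-/- and at least 11.9-fold in MK2/3-/- BMDM, and Fpr-rs3 at least 2.61-fold, 3.34-fold and 2.08-fold in the mean. In MK2/3-/- BMDM after LPS, Fpr-rs3 was well above background on only 2 of 4 arrays, with levels of 2.10 to 6.90. The sphingosine 1-phosphate receptor S1pr1 fell by 2.18, 2.31 and 2.24 (SE 0.49, 0.53 and 0.49), and S1pr2 by 1.34 and 1.29 in wt and MK2-/- BMDM, with -0.77 in MK2/3-/- BMDM missing the threshold (adjusted p = 0.128). Cysltr2, a leukotriene receptor, was called in MK2/3-/- BMDM alone (2.68, adjusted p = 0.00844), with 1.42 and 1.38 in wt and MK2-/- BMDM. For S1pr2 and Cysltr2 the difference between genotypes was not called.

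Of 27 genes that couple or silence these receptors, 5, 5 and 7 rose and 6, 7 and 8 fell, with a median difference of -0.13, -0.28 and -0.18. Among the regulators of G protein signalling, which end the signal of the receptor, Rgs16 rose by 2.96, 4.23 and 3.10 (SE 0.76, 0.82 and 0.76) and Rgs1 by 2.30, 2.41 and 2.14, whereas Rgs2 and Rgs14 fell in all 3 genotypes, with differences of -2.99, -2.72 and -3.04 (SE 0.45, 0.49 and 0.45) and of -1.20, -1.64 and -0.89 (SE 0.19, 0.21 and 0.19). Pik3r5, the regulatory subunit of the G protein-driven PI3-kinase gamma, rose by 2.12, 2.07 and 2.25 (SE 0.21, 0.22 and 0.21). The only gene of the 4 lists called between genotypes was Gnai3, an inhibitory G protein subunit, named here after its values were seen, which was 0.49 higher in MK2/3-/- than in wt BMDM after LPS (SE 0.09, adjusted p = 0.0116).

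The genes that varied most like each receptor over the 23 arrays are named with their Pearson correlation, as a description, since the arrays share cultures, slides and treatment. Ccrl2 went with Crtc2, a coactivator of CREB (r = 0.99), Fpr2 with Bcl2a1c of the Bcl2 family and the niacin receptor Hcar2 (both 0.99), and Fpr1 with Ifi211 and Ccnl1 (both 0.98). Cxcr4 went with the Notch-modifying glycosyltransferase Lfng (0.98), C5ar1 with the scavenger receptor Msr1 (0.97) and Rep15 (0.96), Cx3cr1 with Myo5a (0.94) and Stxbp5 (0.91), C3ar1 with Hmox2 (0.89) and Ccr2 with Unc119 (0.87). With the group means removed, the correlation of Cx3cr1 and Myo5a was 0.90, that of Cxcr4 and Lfng 0.89 and that of Ccrl2 and Crtc2 0.54.

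Markers of other marrow cells varied between cultures, and some of them followed the culture letter. The log2 of the summed signal of 9 neutrophil markers, in which the brightest marker weighs most, ranged from 11.6 to 14.2. S100a8, Ltf and Ngp were highest in culture b in all 6 groups, the culture with the highest Fpr1 in 5 of 6. Col1a1 of stromal cells had a median of 13.2 in cultures e and 8.59 in cultures a, but ranged from 6.32 to 14.36 in cultures a. There it was 14.36 in medium and 14.03 after LPS in wt BMDM, and 6.32 and 7.20 in MK2/3-/- BMDM. F13a1, a monocyte gene, had a median of 12.1 in cultures c and 8.20 in cultures a. The log2 of the summed signal of 7 dendritic cell markers moved with LPS, from 6.87 to 9.93 in medium to 10.4 to 11.4 after LPS. Zbtb46 was called higher in all 3 genotypes and Ccr7 in wt, while Clec9a was not well above background on any array. No marker of any cell type listed was called between genotypes, and the part of these cells in the receptor levels was not tested.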

How the data were processed

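The 23 one-colour arrays were scanned with Agilent Feature Extraction 11.0.1.1, per the file headers, and the spot intensities deposited by the authors are linear, background-subtracted and not normalized between arrays. The authors' deposited log2 table, quantile normalized and set relative to each probe's median, served as an alternative, and its columns of the authors' group means were not used. Spots marked as outliers were treated as missing, intensities were log2 transformed, averaged per probe and quantile normalized (limma 3.58.1 in R 4.3.3). Probes were named through RefSeq accessions (GRCm38.p6), and a gene with several probes was read from that with the greatest rise (or least fall) after LPS in wt cells, the rule of the study's methods. All arrays entered 1 linear model of 6 groups (lmFit, eBayes), with Benjamini-Hochberg adjustment over 26014 genes at 0.05. All tests are two-sided, and adjusted p-values are those of limma.

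A probe is well above background by the scanner's own mark. Where a group had no such array, the fold is a lower bound against the lowest signal well above background. The fit was tested on simulated data. The number of arrays limits the precision.

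The receptors and the 4 gene lists were chosen with earlier results of these data known. Named were all receptors, Mapkapk2 and Mapkapk3, from each list up to 6 genes with adjusted p under 0.05, an absolute log2 difference of at least 1 and every array of 1 group well above background, and the 2 genes most correlated with each receptor, of which those known only by a database entry are not printed. Some genes that meet these rules are not reported here. The culture letters pair medium and LPS arrays: over 12570 genes, deviations from the group means correlated at 0.359 to 0.776 in 11 of 11 pairs. Alternatives were other normalizations, background corrections, floors, filters, probe choices, fits and tests, a replicate block and leaving out each array.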

Additional observations from a re-analysis of the deposited data

Results flagged for a closer look

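Ccr1 of MK2/3-/- BMDM in medium, replicate 1 (culture a), had a log2 signal of 4.56, while the other 3 arrays of the group lay between 2.07 and 2.28, a gap beyond Dixon's critical value for 4 samples. It was the only 1 of 45 combinations of receptor and group tested that passed, and chance marks about 1 in 20. Culture a held the highest Ccr1 value in all 6 groups, and Ccr1 was well above background on 5 of 23 arrays.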

How the results depend on the processing

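Of 108 comparisons of a receptor, 18 were called, and 15 of these, all of them LPS responses, were called under each of 40 settings, while the other 3 were those of Ccrl2 between genotypes. None of the 28 comparisons with an unadjusted p under 0.05 changed sign, and 47 of the other 80 did so at least once. For MK2/3-/- against wt BMDM after LPS the count of called receptors was 1, and became 0 with only the groups compared in the fit (6 against 427 genes called in all) and 0 with the methods' t-test after Benjamini-Hochberg adjustment (5 genes), and 2 with that test unadjusted (Ccrl2 and C5ar1). Between MK2/3-/- and MK2-/- BMDM after LPS the count of 1 became 0 in both of these adjusted settings, and for MK2/3-/- against wt BMDM in medium it became 0 in both and with the normexp background. In medium against MK2-/- BMDM the count of 0 became 1 with the unadjusted t-test (Ccrl2).

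Leaving out each array in turn gave 0 to 1 called receptors between MK2/3-/- and MK2-/- BMDM after LPS, and the Ccrl2 call was lost without MK2-/- LPS replicates 1, 2 or 3 (adjusted p = 0.0980, 0.0859 and 0.0790) or MK2/3-/- LPS replicate 3 (0.102). It gave 0 to 1 between MK2/3-/- and wt BMDM in medium, lost without wt medium replicate 1 or 4 (0.166 and 0.110), any MK2/3-/- medium replicate (0.117, 0.144, 0.0856 and 0.0974), any MK2-/- medium replicate (0.0577, 0.0502 and 0.0541) or MK2-/- LPS replicates 1, 2 or 3 (0.0506, 0.0514 and 0.0544). By the same omissions Ccr2 was gained in MK2-/- BMDM without LPS replicate 1 (0.0464) and in MK2/3-/- BMDM without medium replicate 3 (0.0275), Cx3cr1 in wt without LPS replicate 3 or medium replicate 1 (0.0387 and 0.0222), and C3ar1 in MK2-/- without LPS replicate 4 (0.0386) and in wt without medium replicate 1 (0.0386). Leaving out all arrays of culture letter a, b, c or e was chosen after seeing the data and gave 0 for Ccrl2 in both comparisons (adjusted p = 0.09999, 0.162, 0.296 and 0.123 against MK2-/- after LPS, and 0.444, 0.334, 0.0980 and 0.326 against wt in medium), with fewer arrays in the fit. The cause of the other changes was not tested.

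With culture as a random replicate block (consensus correlation 0.241), 5, 7 and 7 receptors were called for LPS in wt, MK2-/- and MK2/3-/- BMDM, and no genotype call changed. The letters are shared across genotypes, and whether a letter marks 1 experiment across them is not known. In deviations from the group means, same-lettered arrays of different genotypes correlated above 0.1 in 17 of 22 pairs (median 0.373). Those with different letters did so in 15 of 66 pairs (median -0.118). With the letter as a fixed replicate block, 6, 7 and 6 were called. By letter (a, b, c and e), Ccrl2 in MK2/3-/- minus wt was 2.25, 1.67, 1.74 and 1.79 after LPS and 2.26, 1.24, 1.12 and 1.46 in medium.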
